A study of Mus musculus with 6 samples.

Results

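The circadian clock genes described here are the 10 genes Arntl, Clock, Per1, Per2, Per3, Cry1, Cry2, Nr1d1, Nr1d2 and Dbp, found by their gene names among the 56198 entries of an RNA-Seq table of the fetal mouse cortex. All 10 passed the filter on low values, a mean of 1 TPM or more over the 6 samples, which left 14518 genes to test. TPM are transcripts per unit of a fixed total, so they allow for the length of a transcript and add up alike in every sample. Pregnant C57BL/6 mice at embryonic day 14.5 (E14.5) breathed either 100% O2 for 6 h (Ctr, 3 samples) or 2.5% sevoflurane, an inhaled anaesthetic, in 97.5% O2 for 6 h (Sevo, 3 samples). Both groups were thus exposed to high oxygen, and total RNA of the cerebral cortex of the fetuses was sequenced. The hour of day at which exposures began and cortices were taken, and the number of fetuses or litters in a sample, are not stated in the labels or methods used here. The methods say that fetal brains were taken at the end of exposure or a day later. For the sequenced cortices they give only the age, E14.5. The comparison of Sevo with Ctr asked whether the levels of these genes differed, and whether the activating and repressing arms of the clock shifted in opposite directions.

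The clock is a feedback loop of transcription. CLOCK and BMAL1, the product of Arntl, bind E-boxes and drive the Per and Cry genes, whose proteins return to the nucleus and repress CLOCK and BMAL1, and the same E-box drive acts on Nr1d1, Nr1d2 and Dbp. The products of Nr1d1 and Nr1d2, the nuclear receptors REV-ERB alpha and beta, repress Arntl through ROR elements, while DBP activates genes that carry a D-box. In adult tissues with a running clock, Arntl therefore peaks in antiphase to Nr1d1 and Dbp. A shift in phase can move them in opposite directions. In the fetal brain at mid-gestation, rhythms of these genes are known to be weak or not yet established.

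The elements through which the loop acts were looked for in the promoter sequences of RefSeq (GRCm38.p6, from 250 bases before to 50 bases after each start), which matched 9 of the 10 genes, with 13 starts. Per2 was not matched. The capitals in the stretches below mark the elements found. The E-box searched for was CACGTG. A known variant of it is CACGTT, which appears below as it reads from the other strand. The D-box was TTATGTAA, and the element bound by ROR and REV-ERB receptors was TAGGTCA. Each stretch is printed 5′ to 3′ on the strand of its gene, and they are shown because such elements are where the activators and repressors described here are known to act.
Per1, E-box, chr11:69098743-69098832, plus strand: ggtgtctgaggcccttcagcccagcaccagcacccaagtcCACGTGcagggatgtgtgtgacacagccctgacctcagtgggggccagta
Cry1, E-box variant and E-box, chr10:85185084-85185153, minus strand: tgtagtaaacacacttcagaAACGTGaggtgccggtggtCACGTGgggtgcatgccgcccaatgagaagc
Cry2, E-box variant, chr2:92434218-92434247, minus strand: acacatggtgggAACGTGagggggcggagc
Nr1d1, E-box variant, chr11:98775390-98775417, minus strand: cgcacagatctcAACGTGccggctgctg
Per3, a pair of D-boxes, chr4:151044796-151044885, minus strand: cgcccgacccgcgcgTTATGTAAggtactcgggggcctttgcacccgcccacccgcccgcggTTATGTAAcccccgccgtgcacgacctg
Arntl, ROR element, chr7:113207529-113207558, plus strand: gaaggcagaaagTAGGTCAgggacggaggt

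Both strands were searched. Each of the 9 matched members was counted once if any of its starts held the element, with 13 starts among them. The shares of all promoters are per start, so a member with several starts had more chances, and the figures are not like for like. The E-box was in the windows of 2 members (Per1 and Cry1), and 7.15% of all 32851 promoters of the same length held it. The E-box variant was in 3 members (Cry1, Cry2 and Nr1d1), beside 4.68% of all promoters. The D-box was in 1 member (Per3), beside 0.938%, and the ROR element in 1 (Arntl), beside 2.61%. The cAMP response element TGACGTCA was in 0 members, beside 1.79%. These letters describe the windows and do not show that a factor bound there.

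TPM keep no read depth, so no counting interval can be given. Between 14485 and 15193 entries per sample reached 1 TPM, and the share of TPM from mitochondrially encoded genes ranged from 7.89% to 9.13%. The labelled tissue was checked with markers of dorsal forebrain progenitors, such as Emx1, Pax6 and the most abundant of them, Fabp7, which summed to between 1826 and 1915 TPM in Ctr and between 1378 and 1701 TPM in Sevo, and with markers of cortical neurons, such as Tbr1 and Neurod6, which summed to between 2225 and 2560 TPM. Choroid plexus markers summed to 779 TPM in Ctr replicate 2, most of it Ttr, and to between 2.09 and 26.5 TPM in the other 5 samples. Meningeal markers were also highest in Ctr replicate 2, at 66.0 TPM, beside at most 14.1 TPM elsewhere. The library that stood apart for the clock genes was another one, Sevo replicate 2, and results that rest on it are given with and without it.

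None of the 10 clock genes passed the test between Sevo and Ctr at an adjusted p under 0.05 from limma, in either direction. Over all 14518 genes, 0.00689% passed (1 gene). At an unadjusted p under 0.05, 0 members were higher and 0 were lower in Sevo, beside 6.56% and 12.8% of all genes. Of the 10 log2 fold changes (Sevo over Ctr, on log2(TPM + 1)), 6 were positive and 4 negative, with a median of 0.08 for the members and -0.06 for all genes tested. The signs of Arntl, Clock and Cry1, negative here, turned positive with median centring or quantile normalization. Dbp alone had Sevo values that did not overlap the Ctr values, on the higher side (1 of 10, beside 9.43% of all genes), and 0 of 10 lay apart on the lower side, beside 17.7% of all genes. The p-values measure only the spread between samples, since the labels do not say whether samples of a group came from separate litters.

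**Figure D1:**
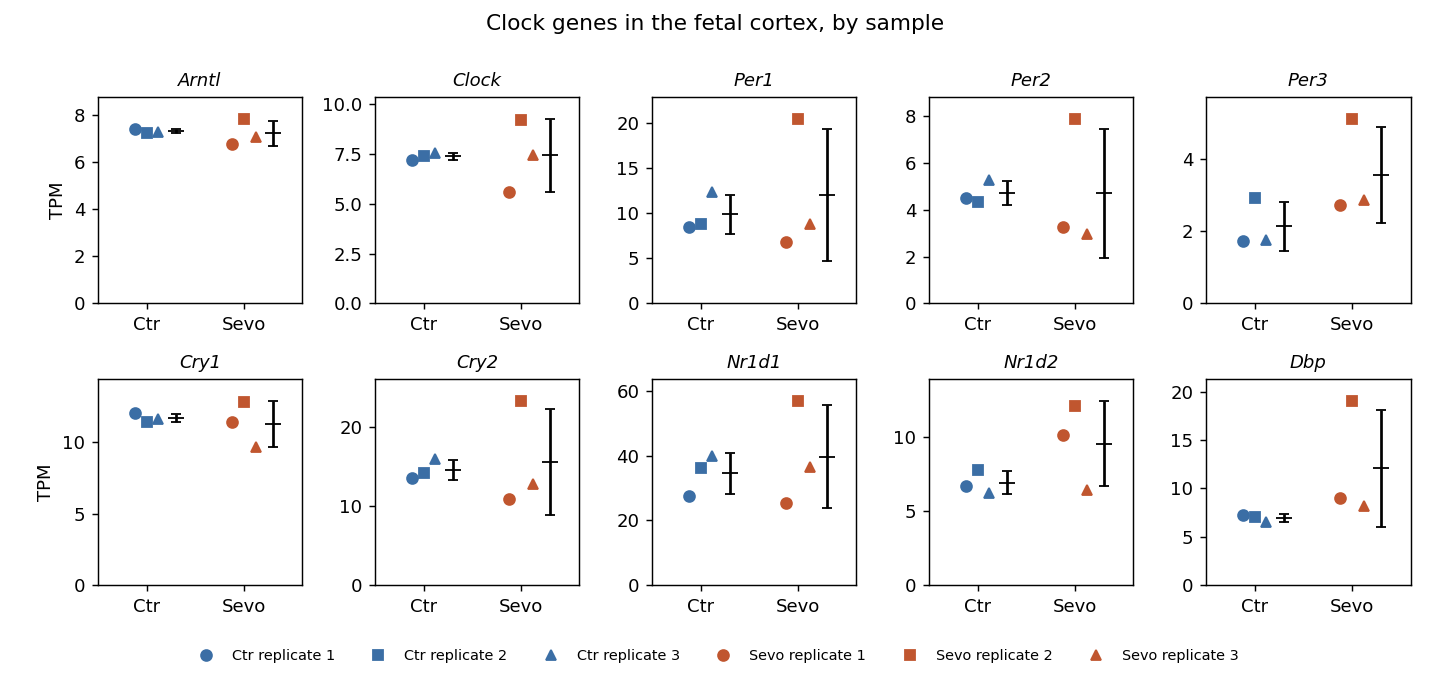
TPM of each of the 10 clock genes (vertical axis, starting at 0) in the 3 Ctr samples (blue) and the 3 Sevo samples (orange), with the replicate number as the symbol; black marks are the group mean ± SD. Sevo replicate 2 (orange square) is the highest sample in all 10 panels, and the remaining Sevo samples lie near or below the Ctr samples in most of them.

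The activators, Arntl and Clock, had close group means with all 6 samples. Their mean log2(TPM + 1) differed by -0.02 between Sevo and Ctr, and by -0.12 without Sevo replicate 2. Arntl (chromosome 7, 113207465 to 113314126, plus strand, GRCm38), which encodes BMAL1, was at 7.41, 7.24 and 7.26 TPM in Ctr replicates 1 to 3 and at 6.75, 7.81 and 7.06 TPM in Sevo replicates 1 to 3. The Sevo samples lay on both sides of the Ctr samples, and the whole range over 6 samples spanned 1.16-fold. The means were 7.30 ± 0.093 and 7.21 ± 0.55 TPM (SD, n = 3 each), with a log2 fold change of -0.02 (SE 0.13, 95% interval -0.33 to 0.29, adjusted p = 0.955, limma). Arntl thus had the narrowest interval of the members. Clock (chromosome 5, 76209868 to 76304792, minus strand), which encodes the partner of BMAL1, was at 7.22, 7.38 and 7.54 TPM in Ctr and at 5.60, 9.23 and 7.47 TPM in Sevo. Its lowest and highest samples were both Sevo samples, so its means (7.38 ± 0.16 and 7.43 ± 1.82 TPM) were close while its Sevo spread was wide. The log2 fold change of Clock was -0.01 (SE 0.18, 95% interval -0.44 to 0.41, adjusted p = 0.975, limma).

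The Per genes encode the repressors whose build-up closes the loop, and Per1 and Per2 are also known as early responders to cues that reset it. Per1 lies on chromosome 11 (69095217 to 69109960, plus strand). The E-box printed above falls inside these bounds, before a RefSeq start within the gene. Per1 was at 8.42, 8.77 and 12.35 TPM in Ctr and at 6.80, 20.37 and 8.83 TPM in Sevo. Sevo replicate 2 was thus 64.9% above the next highest sample, a Ctr sample, while the lowest sample was also a Sevo sample. The log2 fold change was 0.14 (SE 0.35, 95% interval -0.68 to 0.96, adjusted p = 0.861, limma) and -0.29 without Sevo replicate 2. Per2 (chromosome 1, 91415982 to 91459324, minus strand) was at 4.50, 4.33 and 5.29 TPM in Ctr and at 3.26, 7.87 and 2.96 TPM in Sevo. Here the Sevo samples fell on either side of all Ctr samples, a pair below and 1 above, and the means were nearly equal (4.71 ± 0.51 and 4.70 ± 2.75 TPM). With all samples the log2 fold change was -0.10 (95% interval -0.81 to 0.61, adjusted p = 0.887, limma). Without Sevo replicate 2 it was -0.47 (95% interval -0.85 to -0.09, adjusted p = 0.156, limma), the only member with an unadjusted p under 0.05 in that fit. Per3 (chromosome 4, 151003652 to 151044665, minus strand), which carries the D-boxes printed above, was at 1.74, 2.93 and 1.76 TPM in Ctr and at 2.72, 5.11 and 2.88 TPM in Sevo. Its groups overlapped through Ctr replicate 2, and its log2 fold change was 0.52 (SE 0.26, 95% interval -0.08 to 1.13, adjusted p = 0.320, limma), or 0.29 without Sevo replicate 2.

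The cryptochromes are the partners of the PER proteins and the stronger repressors of CLOCK and BMAL1. Cry1 (chromosome 10, 85131700 to 85185064, minus strand) was at 12.03, 11.45 and 11.65 TPM in Ctr and at 11.41, 12.83 and 9.64 TPM in Sevo. After Arntl it was the steadiest member, with a range of 1.33-fold over the 6 samples and a log2 fold change of -0.06 (SE 0.14, 95% interval -0.38 to 0.27, adjusted p = 0.856, limma). Cry2 (chromosome 2, 92403646 to 92434043, minus strand) was at 13.59, 14.16 and 16.02 TPM in Ctr and at 10.86, 23.33 and 12.78 TPM in Sevo. As for Per2, a pair of Sevo samples lay below every Ctr sample and Sevo replicate 2 lay above. Cry2 shares 295 bases of exon (4.67%) with D930015M05Rik. The log2 fold change of Cry2 was 0.03 (SE 0.25, 95% interval -0.56 to 0.62, adjusted p = 0.965, limma) and -0.28 without Sevo replicate 2.

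The REV-ERB receptors link the loop back to Arntl. Nr1d1 (chromosome 11, 98767932 to 98775333, minus strand) was the most abundant member, at 27.46, 36.06 and 39.99 TPM in Ctr and 25.46, 56.84 and 36.47 TPM in Sevo. Sevo replicate 1 was the lowest of the 6 samples, Sevo replicate 3 lay among the Ctr samples and Sevo replicate 2 was 42.1% above the next sample. Its log2 fold change was 0.14 (SE 0.27, 95% interval -0.50 to 0.77, adjusted p = 0.821, limma) and -0.16 without that library. Nr1d2 (chromosome 14, 18204054 to 18239127, minus strand) was at 6.71, 7.76 and 6.25 TPM in Ctr and at 10.13, 12.11 and 6.44 TPM in Sevo. Replicates 1 and 2 of Sevo exceeded all Ctr samples and the third lay among them, with a log2 fold change of 0.38 (SE 0.22, 95% interval -0.13 to 0.90, adjusted p = 0.384, limma), or 0.21 without Sevo replicate 2. Exons of Nr1d1 overlap those of Thra, a thyroid hormone receptor gene on the opposite strand, over 263 bases (8.55% of the Nr1d1 exons), and where counting does not use strand the reads there cannot be told apart. Thra was at 432, 377 and 427 TPM in Ctr and at 478, 479 and 610 TPM in Sevo, wholly higher in Sevo and far above the level of Nr1d1, and its part in the Nr1d1 values was not tested.

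Dbp (chromosome 7, 45705088 to 45710203, plus strand), the D-box activator that serves as an output of the clock, was at 7.30, 7.02 and 6.50 TPM in Ctr and at 9.01, 19.05 and 8.23 TPM in Sevo. Every Sevo sample was above every Ctr sample, and Sevo replicate 2 had 111% more than the next highest. The means were 6.94 ± 0.41 and 12.1 ± 6.03 TPM, and the log2 fold change of 0.63 was the highest of the members (SE 0.28, 95% interval -0.03 to 1.29). It did not pass, with an unadjusted p of 0.0577 and an adjusted p of 0.275 from limma, and an exact permutation test of 3 against 3 cannot go below p = 0.1. Without Sevo replicate 2 the difference was 0.28 (adjusted p = 0.256, limma) and the groups still lay apart. Dbp shares 539 bases of exon (18.0% of its exons) with Sphk2, a sphingosine kinase gene on the opposite strand. Sphk2 was at 19.86, 20.58 and 18.88 TPM in Ctr and at 16.79, 16.33 and 15.23 TPM in Sevo, wholly lower in Sevo. Where counting does not use strand, reads over the shared bases cannot be told apart. The part of Sphk2 in the Dbp values was not tested.

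**Figure D2:**
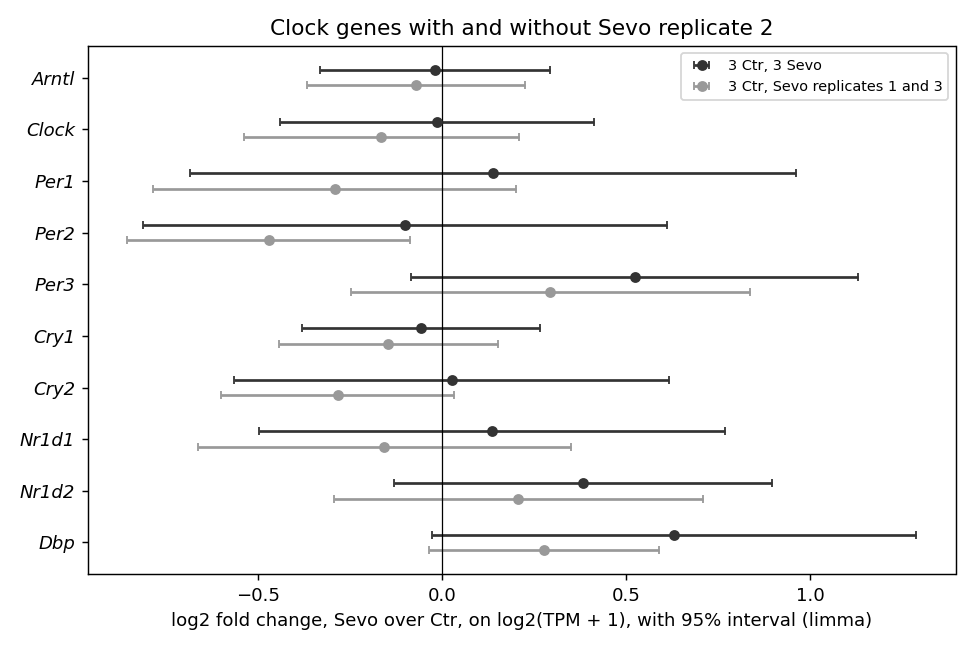
Log2 fold change of each clock gene (Sevo over Ctr, on log2(TPM + 1)) with its 95% interval from limma, with all 6 samples (black) and without Sevo replicate 2 (grey). All 10 black intervals include 0. Sevo replicate 2 is the highest sample of every member, so leaving it out must move every point to the left, to -0.47 for Per2 and 0.28 for Dbp.

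The members differed in level as well as in spread. By mean TPM over the 6 samples the order was Nr1d1 (37.0), Cry2 (15.1), Cry1 (11.5), Per1 (10.9), Dbp (9.52), Nr1d2 (8.23), Clock (7.41), Arntl (7.26), Per2 (4.70) and Per3 (2.86). Of the neighbours in that order, only Nr1d1 and Cry2 had ranges that lay apart over all 6 samples. Within the Ctr samples, ranges also lay apart between Cry2 and Cry1, Per1 and Dbp, Arntl and Per2, and Per2 and Per3, and they overlapped between Cry1 and Per1 and among Dbp, Nr1d2, Clock and Arntl. Nr1d1 was above 70.6% of the genes tested, Cry2 above 46.7% and Per3 above 16.1%, so the clock genes were of moderate to low abundance in this tissue.

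What the members shared was their highest sample. All 10 were highest in Sevo replicate 2, whereas 22.5% of the 14518 genes tested were highest there. Relative to the mean of the other 5 samples, Sevo replicate 2 was 2.50 times as high for Dbp, 2.25 times for Per1, 2.12 times for Per3 and 1.93 times for Per2. The ratio was 1.73 for Cry2, 1.72 for Nr1d1 and 1.62 for Nr1d2, and it was smallest for Clock (1.31), Cry1 (1.14) and Arntl (1.09). Dbp and the Per genes thus stood out most in that library, and the activators and Cry1 least. The lowest sample was Sevo replicate 1 for 5 members, Sevo replicate 3 for 2 and a Ctr sample for 3. The SD of log2(TPM + 1) was larger in Sevo than in Ctr for 10 of 10 members, beside 74.9% of all genes.

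Without Sevo replicate 2, 7 members were lower in Sevo and 3 higher. The median log2 fold change was -0.15 for the members and -0.06 for all genes. As every member was highest in that library, leaving it out could only lower their log2 fold changes. The count of groups lying apart in this alternative was added after the data were seen. In those 5 samples Arntl, Per2, Cry1 and Cry2 lay wholly below the Ctr samples (4 of 10, beside 26.6% of all genes). Dbp lay wholly above (1 of 10, beside 15.2%). The signs of Per1, Cry2 and Nr1d1 thus turned when Sevo replicate 2 was left out. Those of Cry2 and Nr1d1 also turned without Ctr replicate 1 (-0.020 and -0.015). The signs of Arntl, Clock, Per2 and Cry1 turned in other fits that left out 1 sample.

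The groups did not lie apart in either arm of the loop. The mean log2(TPM + 1) of Arntl and Clock was 3.06, 3.05 and 3.07 in Ctr and 2.84, 3.25 and 3.05 in Sevo. That of the 8 repressors and outputs was 3.19, 3.32 and 3.34 in Ctr and 3.21, 4.06 and 3.22 in Sevo. Sevo minus Ctr was -0.02 for the activators and 0.21 for the repressors and outputs, and -0.12 and -0.07 without Sevo replicate 2. Both arms were highest in Sevo replicate 2, by a wider margin in the repressors and outputs. The difference between the arms (repressors and outputs minus activators) was 0.14, 0.27 and 0.27 in Ctr and 0.37, 0.81 and 0.17 in Sevo, so the groups overlapped. Its mean was 0.23 ± 0.08 in Ctr and 0.45 ± 0.33 in Sevo, a difference of 0.23 that came to 0.05 without Sevo replicate 2 and to 0.37 without Sevo replicate 3. As a score over chosen members it is given without a test. The antiphase described above is that of Arntl against Nr1d1 and Dbp. The score also averages Clock, the Per and Cry genes and Nr1d2, so it is not a direct readout of phase.

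**Figure D3:**
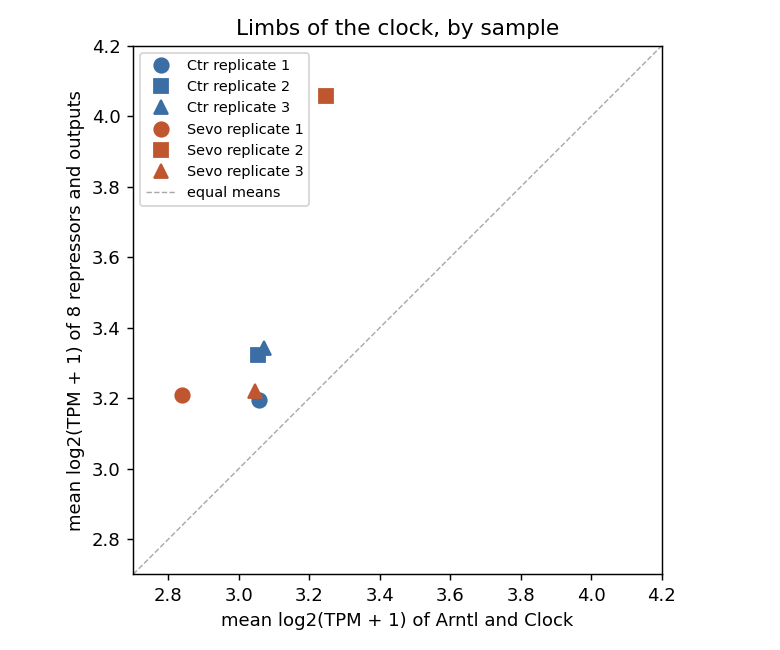
Mean log2(TPM + 1) of Arntl and Clock (horizontal axis) against that of the 8 repressors and outputs (vertical axis), 1 point per sample; blue is Ctr, orange is Sevo, the symbol is the replicate number and the dashed line marks equal means. Sevo replicate 2 is highest on both axes (3.25 and 4.06), and the other 5 samples lie between 3.19 and 3.34 on the vertical axis.

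Within the repressing arm, the mean of the Per genes differed by 0.19 between Sevo and Ctr (-0.16 without Sevo replicate 2), that of the Cry genes by -0.01 (-0.21) and that of the Nr1d genes by 0.26 (0.03). The pair of genes most often read as opposite phases, Nr1d1 and Arntl, gave log2 differences (Nr1d1 minus Arntl) of 1.76, 2.17 and 2.31 in Ctr and 1.77, 2.71 and 2.22 in Sevo, which overlapped. Dbp minus Arntl was -0.02, -0.04 and -0.14 in Ctr and 0.37, 1.19 and 0.20 in Sevo, with no overlap and a difference of 0.65 (0.35 without Sevo replicate 2). The samples thus lay apart for Dbp against Arntl and not for Nr1d1 against Arntl. Dbp alone and Dbp minus Cry1 also lay apart. Arntl and Cry1 had the smallest ranges of the members (1.16-fold and 1.33-fold), so both differences largely repeat the values of Dbp. Dbp minus Cry1 was higher in Sevo by 0.69, and by 0.42 without Sevo replicate 2. Genes outside the lists whose log2(TPM + 1) followed the difference between the arms most closely over the 6 samples were Slc19a2, Ostm1 and Cdc25b (Pearson r of 0.994, 0.991 and 0.989). Trove2, Bbip1 and Trappc12 ran most opposite to it (-0.996, -0.996 and -0.994). These are the extremes of 10150 genes over 6 samples of 2 groups, among which Sevo replicate 2 stands apart, and they are given as a description.

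Of 22 further clock genes, 19 were tested and 0 passed in either direction (adjusted p between 0.158 and 0.959, limma). At an unadjusted p under 0.05, 1 was higher (Tef) and 1 was lower (Nfil3) in Sevo, beside 6.56% and 12.8% of all genes. Of the log2 fold changes, 4 were positive and 15 negative, with a median of -0.10. Tef, which encodes a D-box activator of the same family as DBP, was at 23.56, 25.40 and 27.13 TPM in Ctr and at 31.10, 47.07 and 28.35 TPM in Sevo. As for Dbp, every Sevo sample was above every Ctr sample and Sevo replicate 2 was highest, with a log2 fold change of 0.44 (SE 0.19, adjusted p = 0.251, limma) or 0.22 without that library. Nfil3, the repressor that competes with them at D-boxes, was at 22.81, 20.05 and 22.05 TPM in Ctr and at 16.62, 16.06 and 17.27 TPM in Sevo. The Sevo samples of Nfil3 lay close together and all below Ctr, and the log2 fold change was -0.36 (SE 0.11, adjusted p = 0.158, limma) or -0.33 without Sevo replicate 2. Of the 19 genes, 1 lay wholly above Ctr (Tef) and 4 wholly below (Nfil3, Ciart, Btrc and Prkaa1), beside 9.43% and 17.7% of all genes. The third D-box activator, Hlf, was at 4.45, 2.18 and 1.32 TPM in Ctr and at 1.21, 1.62 and 1.47 TPM in Sevo. Its groups overlapped, and its log2 fold change of -0.50 had the opposite sign to those of Dbp and Tef (SE 0.32, adjusted p = 0.429, limma). Rora, a nuclear receptor that activates Arntl at ROR elements, was below the filter and not tested. It was at 0.59, 0.67 and 0.50 TPM in Ctr and at 0.87, 1.09 and 1.27 TPM in Sevo, wholly higher in Sevo, with Sevo replicate 3 highest.

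Ciart, which encodes a further repressor of CLOCK and BMAL1, was at 3.33, 3.35 and 3.47 TPM in Ctr and at 1.95, 2.94 and 1.95 TPM in Sevo. It lay below Ctr in every Sevo sample (log2 fold change -0.43, SE 0.19, adjusted p = 0.268, limma). Btrc, part of a ubiquitin ligase that turns over PER proteins, and Prkaa1, a catalytic subunit of AMPK, which marks CRY1 for turnover, also lay below Ctr in every Sevo sample, with log2 fold changes of -0.18 and -0.25 (adjusted p = 0.399 and 0.372, limma). The most abundant genes of the list encode kinases and turnover factors of PER. They were Csnk1e (log2 fold change -0.03), Csnk2a1 (-0.10), Csnk1d (-0.27) and Fbxw11 (-0.18), with adjusted p from limma of 0.865, 0.583, 0.269 and 0.406. Csnk1d was at 91.41, 93.14 and 102.46 TPM in Ctr and at 74.61, 93.23 and 70.85 TPM in Sevo. Without Sevo replicate 2 its log2 fold change was -0.39 (adjusted p = 0.0813, limma), the lowest adjusted p of the 19 genes in that fit. In all, 4 of the 19 were highest in Sevo replicate 2, beside 22.5% of all genes.

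**Figure D4:**
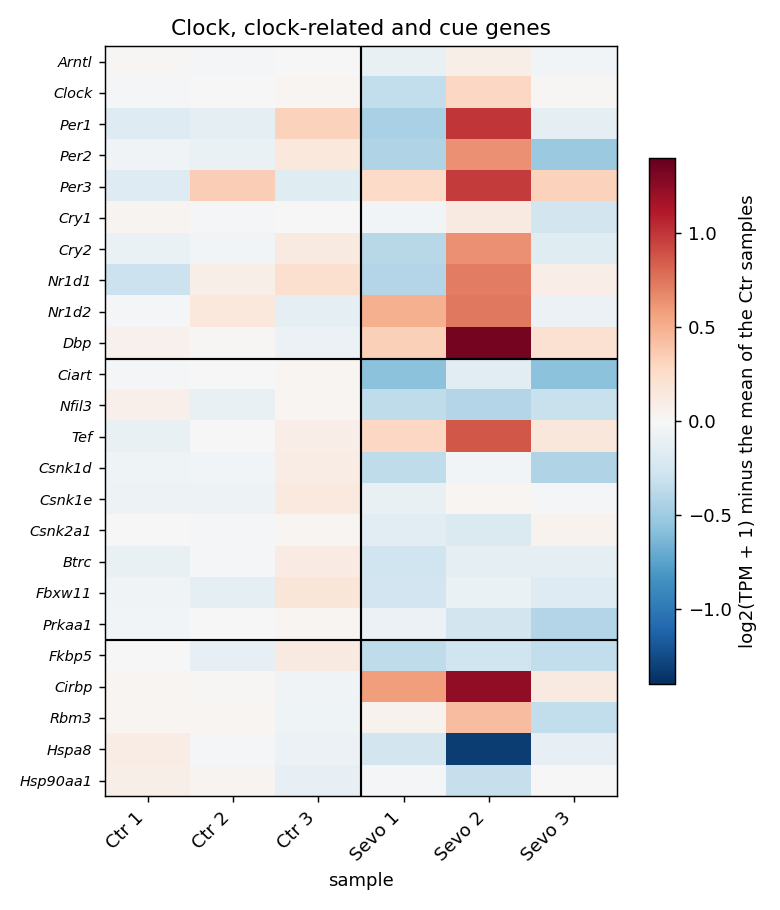
Log2(TPM + 1) of each gene minus the mean of the Ctr samples (colour, red higher and blue lower), with 1 column per sample and a vertical line between Ctr and Sevo; rows are the 10 clock genes, then the named further clock genes, then the named cue genes. The column of Sevo replicate 2 is red for all 10 clock genes, for Tef, Cirbp and Rbm3, and darkest blue for Hspa8, while Nfil3, Ciart and Fkbp5 are blue in all 3 Sevo columns.

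Genes that answer cues known to reset clocks (glucocorticoids, temperature, calcium and cAMP) were read beside the members. Of 22 such genes 18 were tested and 0 passed (adjusted p between 0.184 and 0.905, limma). At an unadjusted p under 0.05, 1 was higher (Cirbp) and 1 lower (Fkbp5), beside 6.56% and 12.8% of all genes. Of the 18, 1 lay wholly above Ctr (Cirbp) and 2 wholly below (Hspa8 and Fkbp5), beside 9.43% and 17.7% of all genes. Cirbp, a cold-induced RNA-binding protein known in mouse fibroblasts to act on Clock RNA, was at 192.10, 190.98 and 182.62 TPM in Ctr and at 282.37, 448.24 and 205.63 TPM in Sevo. All Sevo samples were above all Ctr samples, in the order of Dbp and Tef (replicate 2, then 1, then 3), with a log2 fold change of 0.65 (SE 0.24, adjusted p = 0.209, limma) or 0.35 without Sevo replicate 2. Rbm3, the other cold-induced RNA-binding protein, was at 610, 612 and 574 TPM in Ctr and at 621, 810 and 473 TPM in Sevo. It was again highest in Sevo replicate 2, but its groups overlapped (log2 fold change 0.05, adjusted p = 0.905, limma).

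Of the 5 chaperone genes of the list, Hspa8, Hsp90aa1, Hsph1 and Hspa1a were lowest in Sevo replicate 2 and Hspa1b was highest there. Hspa8, a constitutive chaperone of the HSP70 family, was at 2130, 1943 and 1861 TPM in Ctr and at 1649, 788 and 1827 TPM in Sevo, wholly below Ctr (log2 fold change -0.57, SE 0.28, adjusted p = 0.320, limma, and -0.19 without Sevo replicate 2). Hsp90aa1, the inducible HSP90, was at 580, 565 and 505 TPM in Ctr and at 542, 437 and 548 TPM in Sevo, and Sevo replicate 2 was its lowest sample. Fkbp5, a target of the glucocorticoid receptor, was at 24.86, 22.90 and 27.24 TPM in Ctr and at 19.33, 20.40 and 19.42 TPM in Sevo. It lay below Ctr in each Sevo sample alike (log2 fold change -0.32, SE 0.11, adjusted p = 0.184, limma). Of the 5 genes of the glucocorticoid list tested, 3 log2 fold changes were negative (Fkbp5, Tsc22d3 and Nr3c1) and 2 positive (Sgk1 and Zbtb16). That of Sgk1 was 0.29 (adjusted p = 0.528, limma), or 0.52 without Sevo replicate 2. Without that library, 1 of the 5 was negative (Fkbp5) and 4 were positive. Of the cue genes below 1 TPM on average, Pdk4, of the glucocorticoid list, and Hspa1b also lay apart, on the higher side in Sevo. They were not tested. Whether temperature or hormones had a part in the clock gene values was not tested.

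Some markers of other cells were highest in Sevo replicate 2 as well, where 22.5% of all genes tested were highest. This held for 0 of the choroid plexus, meningeal, endothelial and microglial markers. The 6 markers of the ganglionic eminence, the ventral source of cortical interneurons, summed to 90.7, 94.3 and 107 TPM in Ctr and to 61.0, 168 and 134 TPM in Sevo, and 4 of the 6 were highest in Sevo replicate 2. Dlx2 was at 14.43, 13.17 and 16.85 TPM in Ctr and at 10.18, 41.93 and 17.11 TPM in Sevo. Sevo replicate 1, the lowest sample for 5 clock genes, was also the lowest for this sum. The 7 hypothalamic markers summed to between 2.58 and 3.83 TPM in Ctr and between 4.80 and 10.7 TPM in Sevo, with Avp at 0 in every sample and Rax at 0 in Sevo replicate 2. Six3, also expressed in the ventral forebrain, reached 5.83 TPM in that library. Nkx2-1 was at 0.12, 0.25 and 0.23 TPM in Ctr and at 0.08, 1.87 and 0.54 TPM in Sevo. Otp was at most 0.02 TPM in Ctr and was at 0, 0.45 and 0.75 TPM in Sevo. Pomc was highest in Sevo replicate 1, at 6.25 TPM. In Sevo replicate 2 choroid plexus markers summed to 5.69 TPM and meningeal markers to 14.1 TPM, the latter above every sample but Ctr replicate 2. Erythroid markers summed to 516, 1006 and 682 TPM in Ctr and to 535, 977 and 613 TPM in Sevo, and 4 of the 6 (Hba-x, Hbb-y, Hbb-bh1 and Alas2) were highest in Sevo replicate 2. Endothelial markers summed to between 46.0 and 95.6 TPM and microglial markers to between 22.1 and 30.7 TPM. The sum of the 7 dorsal progenitor markers lay wholly below Ctr in the Sevo samples, mostly through Fabp7 (1125 TPM on average in Ctr and 869 TPM in Sevo). All 7 log2 fold changes were negative, and 2 of the 7, Fabp7 and Eomes, lay wholly below Ctr, beside 17.7% of all genes. Eomes was at 170, 168 and 176 TPM in Ctr and at 153, 133 and 112 TPM in Sevo (adjusted p = 0.163, limma). Emx1 and Pax6 overlapped between the groups and were highest in Sevo replicate 2. Of the 6 cortical neuron markers, 4 log2 fold changes were negative and 2 positive, and Tbr1 alone lay wholly below Ctr. In bulk cortex, fewer cells of a type and less RNA per cell cannot be told apart, and the part of tissue composition in the clock gene values was not tested.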

How the data were processed

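RNA-Seq of total RNA from the E14.5 fetal cortex was deposited by the authors as TPM per gene for 3 Ctr and 3 Sevo samples, grouped by their labels. Bowtie 0.12.2, edgeR, mm8 and mm10 are listed without roles in the submitters' processing notes, while the program behind the values was not given in the sources used here. A count test, as in the study's methods, cannot be made from TPM and was not run. Positions and exon overlaps came from GENCODE M21 (GRCm38), which need not be the annotation behind the TPM.

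The 14518 named genes whose mean reached 1 TPM were compared with limma 3.58.1 (R 4.3.3) on log2(TPM + 1), with a trended prior. Tests were two-sided and p-values were adjusted by Benjamini and Hochberg over all of these genes. This scale understates changes of low genes. The fit was tested on simulated data. Summaries used Python 3.11.15, pandas 2.3.3 and numpy 2.4.6, and plots matplotlib 3.10.9.

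The 10 members and the lists of further clock, cue and marker genes were chosen with earlier results of these data known, and 2 genes of these lists are not reported here. All members are named, and of the further clock and cue genes those at an unadjusted p under 0.05, those whose groups did not overlap and the 4 most abundant. Likeness took the 3 highest and 3 lowest correlations among genes whose mean reached 5 TPM. Hlf, Hsph1, Hspa1a, Nr3c1, Tsc22d3, Sgk1, Zbtb16, Sphk2, Thra and the marker genes were named after their values were seen. Alternatives were other pseudocounts, filters and scalings, limma without the trend, a replicate block, and each sample left out in turn.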

Additional observations from a re-analysis of the deposited data

How the results depend on the processing

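No clock gene was called in any of the 14 alternatives fitted, where the lowest adjusted p of a member was 0.148 (Nr1d2 without Sevo replicate 3, limma), of a further clock gene 0.0813 and of a cue gene 0.127. At an unadjusted p under 0.05 the counts were 2 of 19 further clock genes and 2 of 18 cue genes. Of all genes, 6.56% were higher and 12.8% lower at that threshold. Median centring moved the median of all genes by 0.098 and turned Arntl to 0.079, Clock to 0.084 and Cry1 to 0.041, and quantile normalization gave 0.040, 0.048 and 0.029, so the negative signs of these genes turned under both scalings. Leaving out 1 sample at a time gave log2 fold changes from -0.071 to 0.021 for Arntl, -0.16 to 0.15 for Clock, -0.29 to 0.44 for Per1, -0.47 to 0.11 for Per2, -0.15 to 0.044 for Cry1, -0.28 to 0.24 for Cry2 and -0.16 to 0.41 for Nr1d1. Dbp (0.28 to 0.84), Nr1d2 (0.21 to 0.62) and Per3 (0.29 to 0.69) kept their sign. The difference between the arms ranged from 0.05 to 0.37 over the same leave-outs. The minimum of 5 TPM left out Per2 and Per3. With the replicate block 0 members were called and the log2 fold change of Dbp was 0.63, and deviations of same-numbered samples correlated at -0.02, 0.02 and 0.01, so the numbers were not taken to pair the samples. Outliers were not tested in groups of 3.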
